A study of Mus musculus with 6 samples.

Results

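The genes described here are 9 genes of the helper T-cell lineages, Cd4, Zbtb7b, Gata3, Foxp3, Ikzf2, Bcl6, Maf, Icos and Cd40lg. They were taken by symbol from the RNA-seq table of the series, and all 9 were found among its 34245 genes. RNA was sequenced from 3 peripheral T-cell lymphomas (PTCL), which were isolated from lymph nodes of terminally sick Dnmt3b+/- mice of the FVB strain. These mice carry 1 conventional knockout allele of the DNA methyltransferase Dnmt3b, made from mice with a loxP-flanked gene, in all cells of the body. The tumors are bulk tissue of separate animals, numbered 1 to 3 without order, and the ages of the mice are not given in the sources used here. No control sample is among the RNA-seq libraries analysed here, so every comparison below is between tumors of 1 group and is descriptive.

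Mature T cells leave the thymus as CD4+ or CD8+ cells, and the choice is made by transcription factors that oppose each other. Zbtb7b, also called ThPOK, holds cells in the CD4 lineage, and Runx3 holds them in the CD8 lineage. CD4+ helper cells then take up further programs, of which Gata3 serves the type 2 helper cells, Foxp3 the regulatory cells and Bcl6 the follicular helper cells that assist B cells in lymph nodes.

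Expression is given as FPKM, the fragments on a gene per kilobase of exons, scaled to the depth of the library, so that levels of different genes can be compared per length. The depth behind the values was 30726570, 18969988 and 20770928 reads for tumors 1, 2 and 3, recovered from the table itself. All 3 tumors expressed the genes of T cells in general at similar levels. The geometric mean of 8 such genes was 79.3, 92.9 and 90.7 FPKM in tumors 1, 2 and 3, and none of the 8 differed 2-fold between tumors.

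The start sites of 4 of the 9 genes were in the table of RefSeq promoters (GRCm38.p6), Zbtb7b, Gata3, Foxp3 and Bcl6. Not in the table were Cd4, Ikzf2, Maf, Icos and Cd40lg. Where a gene had 2 start sites, the one nearer to the 5′ end of the gene in the deposited table was used. The start used is that 5′ end for Foxp3 and Bcl6, while it lies 11434 bases inside the deposited gene for Gata3, which has no other start in the table, and 1398 bases inside it for Zbtb7b, so the stretches of these 2 genes lie within the coordinates given for them below. The 250 bases before each start are shown 5′ to 3′ with CpG dinucleotides, the substrate of DNA methyltransferases, in capitals, because Gata3 and Foxp3 differed between the tumors by over 2-fold and Zbtb7b and Bcl6 did not. They lie at chr2:9878601-9878850 on the minus strand for Gata3, chrX:7579426-7579675 on the plus strand for Foxp3, chr3:89393379-89393628 on the minus strand for Zbtb7b and chr16:23988853-23989102 on the minus strand for Bcl6.
Gata3: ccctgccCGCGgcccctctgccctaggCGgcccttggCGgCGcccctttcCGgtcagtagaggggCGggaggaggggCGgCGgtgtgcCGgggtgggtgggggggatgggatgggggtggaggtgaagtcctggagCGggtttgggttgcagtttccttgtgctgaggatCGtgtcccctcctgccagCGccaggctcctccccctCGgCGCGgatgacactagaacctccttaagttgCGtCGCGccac
Foxp3: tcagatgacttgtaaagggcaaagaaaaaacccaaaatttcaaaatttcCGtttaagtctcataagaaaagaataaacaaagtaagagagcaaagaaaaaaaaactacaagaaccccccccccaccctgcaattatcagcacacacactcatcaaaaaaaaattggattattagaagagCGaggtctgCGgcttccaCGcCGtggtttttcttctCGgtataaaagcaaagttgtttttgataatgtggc
Zbtb7b: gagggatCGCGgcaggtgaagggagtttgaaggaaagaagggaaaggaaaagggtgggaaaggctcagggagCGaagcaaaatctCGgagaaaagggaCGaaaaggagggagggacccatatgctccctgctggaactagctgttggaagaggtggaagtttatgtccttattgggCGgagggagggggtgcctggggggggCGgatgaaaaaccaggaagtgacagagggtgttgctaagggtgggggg
Bcl6: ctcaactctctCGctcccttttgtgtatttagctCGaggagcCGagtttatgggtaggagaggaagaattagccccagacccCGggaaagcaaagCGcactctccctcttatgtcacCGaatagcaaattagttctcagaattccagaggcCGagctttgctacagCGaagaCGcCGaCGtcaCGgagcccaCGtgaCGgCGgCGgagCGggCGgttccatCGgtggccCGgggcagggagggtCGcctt

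These stretches are the reference genome, not the FVB strain, and their methylation was not analysed here. The Gata3 stretch holds 19 CpG and the Bcl6 stretch 21, and 19.7% and 16.3% of 32851 promoters hold at least as many. Zbtb7b has 7 and Foxp3 has 6, where the median promoter has 6. The letters GATAA, a core bound by GATA factors, were searched on both strands and occur 2 times before Foxp3, 118 and 11 bases before the start, and not in the other 3 stretches. They occur in 22.6% of all promoters. The letters TGTGGT, a core bound by Runx factors, are in none of the 4 stretches and in 14.0% of all promoters.

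Cd4 (ENSMUSG00000023274) encodes the coreceptor that defines helper cells and occupies bases 124864692 to 124888221 of chromosome 6 (mm10). Its level was 28.4, 4.28 and 8.22 FPKM in tumors 1, 2 and 3, averaging 13.6 ± 12.9 (SD, n = 3). Tumor 1 stood far above the others, and without it the mean was 6.25 FPKM. The 95% Poisson intervals on the recovered reads, which cover counting error only, ran from 27.4 to 29.3, from 3.82 to 4.76 and from 7.61 to 8.85 FPKM, so the 3 tumors did not overlap within counting error. Cd4 was the most abundant of the 9 genes in each tumor and exceeded 96.8% of all gene symbols in tumor 1 and 81.1% in tumor 2. In bulk tissue, fewer cells of a type and less RNA per cell cannot be told apart, here and in all values that follow.

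The CD8 coreceptor was far above Cd4 in every tumor. Cd8a had 259, 122 and 218 FPKM in tumors 1, 2 and 3. Cd8b1, the second chain, had 435, 166 and 443 FPKM in the same order. The ratio of Cd4 to Cd8a was 0.110, 0.0351 and 0.0377 in tumors 1, 2 and 3, averaging 0.0608 ± 0.0423 (SD, n = 3). Exact binomial intervals of the ratio overlapped between tumor 2 (0.0313 to 0.0392) and tumor 3 (0.0349 to 0.0407), while tumor 1 (0.106 to 0.114) lay apart. Without tumor 1 the mean ratio was 0.0364. With Cd8b1 as the denominator tumor 1 was again highest, at 0.0652, and tumor 3 was lowest, at 0.0185.

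Zbtb7b (ENSMUSG00000028042), on chromosome 3 from 89377644 to 89394776, varied least of the 9 genes. It had 3.07, 2.65 and 3.18 FPKM in tumors 1, 2 and 3, averaging 2.97 ± 0.280 (SD, n = 3). The counting intervals of the 3 tumors overlapped (2.82 to 3.35, 2.35 to 2.98 and 2.86 to 3.52 FPKM). The ratio of tumor 3 to tumor 2 was 1.20, with a counting interval from 1.02 to 1.41, just above 1. Its opponent Runx3 had 13.9, 36.9 and 18.5 FPKM and was highest in tumor 2. The ratio of Zbtb7b to Runx3 was 0.222, 0.0718 and 0.171 in tumors 1, 2 and 3, below 1 throughout. Tumor 2, where Runx3 was highest, lay below the others beyond counting error. The order of the tumors depends on the denominator, as the ratio of Zbtb7b to Runx1 was 0.992, 1.32 and 2.59 in tumors 1, 2 and 3, lowest in tumor 1. Of the 9 other factors of the CD4 and CD8 choice on the list, Runx3 included, the most abundant by the mean over tumors were Tcf7, at 175, 124 and 169 FPKM, and Cbfb, the partner of Runx proteins, at 43.7, 24.2 and 32.5 FPKM. The list was highest in tumor 1 for 6 of its genes and in tumor 2 for 3, where 50.6% and 33.7% of all genes averaging 1 FPKM or more were highest. Further shares of all genes given beside gene lists are also over genes with that average. A gene can reach it through its level in 1 tumor, and 4.31% of these genes fall under it without tumor 1 and 2.96% without tumor 2.

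**Figure D1:**
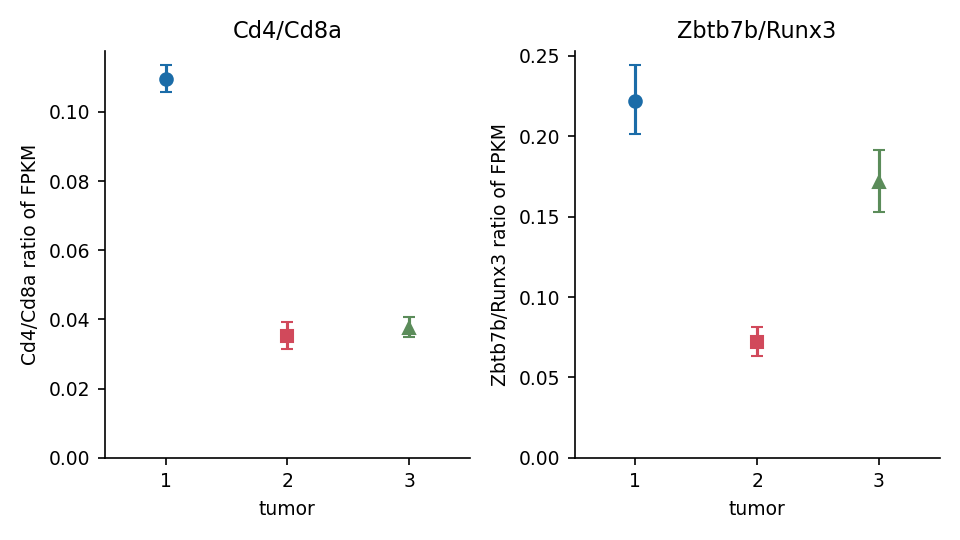
FPKM of Cd4 divided by that of Cd8a (left) and of Zbtb7b divided by that of Runx3 (right) in each of 3 tumors, with both axes starting at 0. Points are the ratios and bars their exact 95% intervals from recovered reads; tumor 1 stands at 0.110 on the left, and tumor 2 at 0.0718 is the lowest on the right.

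Gata3 (ENSMUSG00000015619), on chromosome 2 from 9857078 to 9890034, is needed for CD4 cells and drives type 2 helper cells. Its level was 5.06, 2.31 and 4.55 FPKM in tumors 1, 2 and 3, averaging 3.97 ± 1.46 (SD, n = 3). The ratio of tumor 1 to tumor 2 was 2.19, with a counting interval from 1.85 to 2.61, which includes 2. Tumors 1 and 3 overlapped within counting error (4.67 to 5.47 and 4.10 to 5.03 FPKM) and tumor 2 (1.98 to 2.67) lay below both, while the order of tumors 1 and 3 turned when the values were divided by median-of-ratios factors. The type 1 factor Tbx21 (T-bet) had the opposite order, with 7.10, 34.3 and 26.3 FPKM in tumors 1, 2 and 3. The ratio of Tbx21 to Gata3 was 1.40, 14.9 and 5.77 in tumors 1, 2 and 3, so Tbx21 exceeded Gata3 in each. As Cd8a was far above Cd4 in each tumor, these levels are not those of helper cells alone. Which cells hold the type 1 and type 2 transcripts, here and in the lists below, was not tested.

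Other genes of the type 1 and type 2 programs were taken as lists. Cxcr3, a receptor of type 1 cells and the most abundant gene of that list, had 28.4, 195 and 174 FPKM, and Stat4 had 19.9, 12.9 and 30.5 FPKM. Ifng, the type 1 cytokine, went the other way and was highest in tumor 1, with 8.49 FPKM against 1.10 and 1.12. The 6 type 1 genes, Tbx21 included, summed to 72.1, 266 and 238 FPKM, of which Cxcr3 was the larger part in tumors 2 and 3. Of these genes 4 were highest in tumor 2 (33.7% of all genes), 1 of which averages under 1 FPKM without tumor 2, and each tumor was lowest for 2 of them. Of the 7 type 2 genes, 5 average 1 FPKM or more, and 3 of these 5 were highest in tumor 1 (50.6% of all genes). As 2 of the 3, Il4 and Il1rl1, reach that average through tumor 1 alone, nothing is read from this count. The cytokine Il4 had 132 reads and 3.50 FPKM in tumor 1, no read in tumor 2, where a count of 0 allows up to 0.129 FPKM, and 2 reads in tumor 3. Il13 had 18 reads in tumor 1 and none in tumors 2 and 3. Stat6, the most abundant type 2 gene, was nearly even at 23.9, 23.7 and 25.5 FPKM, and Ccr4 had 18.2, 10.7 and 1.43 FPKM. Il1rl1, the receptor of IL-33, had 3.78, 0.0765 and 0.335 FPKM in tumors 1, 2 and 3.

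Foxp3 (ENSMUSG00000039521), on chromosome X from 7579676 to 7595243, is the factor of regulatory T cells. It had 5.12, 1.07 and 3.32 FPKM in tumors 1, 2 and 3, averaging 3.17 ± 2.03 (SD, n = 3). All 3 tumors lay apart, with approximate counting intervals of 4.75 to 5.50, 0.864 to 1.31 and 2.96 to 3.71 FPKM, since its reads did not come out whole with the exon length used. Its gene overlaps Ccdc22 and Gm36995 on the opposite strand and Flicr on the same strand, and whether the authors counted by strand is not given in the sources used here. Ccdc22 had 5.73, 4.63 and 5.82 FPKM and Gm36995 had 4.05, 4.11 and 4.15 FPKM. Flicr had 1.04, 0.561 and 0.768 FPKM, the same order as Foxp3, and reads on bases that overlapping genes share cannot be told apart. Relative to Cd4, Foxp3 was lowest in tumor 1, with a ratio of 0.180 against 0.250 in tumor 2 and 0.404 in tumor 3.

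Ikzf2 (ENSMUSG00000025997), on chromosome 1 from 69531214 to 69687245, encodes Helios, found in many regulatory T cells. Its level was 1.62, 0.0318 and 0.90 FPKM in tumors 1, 2 and 3, on 579, 7 and 217 reads, averaging 0.851 ± 0.797 (SD, n = 3). Tumor 2 lay far below the others, and the ratio of tumor 1 to tumor 2 was 51.1, with a counting interval from 24.6 to 128. Without tumor 1 the mean was 0.466 FPKM.

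The list of 10 other regulatory T-cell genes summed to 113, 40.1 and 34.7 FPKM in tumors 1, 2 and 3. Of its 6 genes averaging 1 FPKM or more, 5 were highest in tumor 1, where 50.6% of all genes were highest (60.5% with rescaled FPKM and 39.0% with median-of-ratios factors), and 1 of the 5 reaches that average through tumor 1 alone. Ctla4, an inhibitory receptor, had 34.0, 0.339 and 4.46 FPKM in tumors 1, 2 and 3, the same order as Foxp3 and Ikzf2. Il2ra, the alpha chain of the IL-2 receptor, was lowest in tumor 3 and not in tumor 2, with 43.2, 9.98 and 1.96 FPKM. The ratio of Il2ra to Foxp3 was 8.45, 9.32 and 0.589 in tumors 1, 2 and 3. Tnfrsf18, the most abundant gene of the list by the mean over tumors, was highest in tumor 2 (16.6, 24.8 and 17.7 FPKM) and below Il2ra and Ctla4 in tumor 1.

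Bcl6 (ENSMUSG00000022508), on chromosome 16 from 23965052 to 23988852, is the factor of follicular helper cells and of germinal center B cells. It had 1.12, 1.46 and 0.992 FPKM in tumors 1, 2 and 3, averaging 1.19 ± 0.240 (SD, n = 3). It was the only one of the 9 genes highest in tumor 2, and the tumor with its lowest value changed from 3 to 1 with median-of-ratios factors. Tumor 2 (1.25 to 1.68 FPKM) overlapped tumor 1 (0.977 to 1.27) within counting error and lay above tumor 3 (0.833 to 1.17).

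Of 10 other genes of follicular helper cells, 6 average 1 FPKM or more, and 5 of these 6 were lowest in tumor 2 (38.3% of all genes), where Bcl6 was highest. Of these 6, Pdcd1 reaches that average through tumor 1 alone. Cxcr5, the receptor that guides cells into follicles, had 7.44, 3.02 and 11.1 FPKM in tumors 1, 2 and 3. Pdcd1, which encodes PD-1, had 3.57, 0.464 and 1.25 FPKM, and the cytokine Il21 had 59, 1 and 30 reads. Batf was the most abundant of the list by the mean over tumors and nearly even, at 16.4, 14.9 and 15.9 FPKM. Il6ra had 21.0, 0.970 and 14.2 FPKM, above Batf in tumor 1. Sh2d1a was highest in tumor 2 and above Batf there, with 20.9 FPKM against 2.80 and 10.6. Ascl2 had no read in any tumor, which allows up to 0.0602, 0.0974 and 0.0890 FPKM.

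Maf (ENSMUSG00000055435), on chromosome 8 from 115682942 to 115707794, encodes c-Maf, used by several helper programs and also by macrophages. Its level was 4.46, 1.25 and 1.43 FPKM in tumors 1, 2 and 3, averaging 2.38 ± 1.80 (SD, n = 3) and 1.34 without tumor 1. Tumors 2 and 3 overlapped within counting error (1.08 to 1.44 and 1.26 to 1.62 FPKM). The antisense gene Gm15655 overlaps the coordinates of Maf and had 4.22, 0.719 and 2.08 FPKM. Whether the pair shares exon bases was not examined, and reads on any shared bases cannot be told apart without strand. The same holds for Gata3 with Gm13256 (1.25, 1.01 and 1.48 FPKM), Bcl6 with Gm37419 (0.571, 0.462 and 1.27 FPKM), Zbtb7b with Gm15417 (0.0585, 0.474 and 0.173 FPKM) and Ikzf2 with Gm29114 (0.117, 0.0189 and 0.0384 FPKM). Most macrophage markers were also highest in tumor 1. All 8 on the list were detected, 7 were highest in tumor 1 (50.6% of all genes), 2 of which average under 1 FPKM without that tumor, and they summed to 435, 147 and 36.5 FPKM in tumors 1, 2 and 3. All 8 markers were lowest in tumor 3 (37.4% of all genes), while Maf was lowest in tumor 2. The most abundant by the mean over tumors was Lyz2, at 215, 33.1 and 20.3 FPKM, followed by C1qa at 74.5, 24.1 and 1.44 and C1qb at 64.4, 20.6 and 1.59. Cd68, the marker highest in tumor 2, had 19.6, 51.2 and 9.27 FPKM and was above Lyz2 in that tumor. Among the defining markers, Csf1r had 20.7, 3.72 and 2.36 FPKM and Adgre1 had 5.38, 0.942 and 0.579 FPKM, and neither was at 0 in any tumor. The part of macrophages in the level of Maf was not tested.

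Icos (ENSMUSG00000026009), on chromosome 1 from 60977927 to 61000320, encodes a costimulatory receptor of activated T cells and was the second most abundant of the 9 genes by its mean, although below Zbtb7b and Gata3 in tumor 2. It had 15.9, 2.03 and 5.21 FPKM in tumors 1, 2 and 3, averaging 7.70 ± 7.25 (SD, n = 3) and 3.62 without tumor 1. The 3 tumors lay apart beyond counting error (15.1 to 16.7, 1.70 to 2.41 and 4.69 to 5.77 FPKM). Icos had ratios to Cd4 of 0.560, 0.475 and 0.634 in tumors 1, 2 and 3, a range of 1.34-fold. Icosl, its ligand on other cells, varied less, at 4.81, 3.40 and 3.65 FPKM.

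Cd40lg (ENSMUSG00000031132), on chromosome X from 57212143 to 57224042, encodes the ligand by which helper cells activate B cells and macrophages. Its level was 2.45, 0.127 and 1.69 FPKM in tumors 1, 2 and 3, on 94, 3 and 44 reads, averaging 1.42 ± 1.18 (SD, n = 3) and 0.911 without tumor 1. Tumors 1 and 3 overlapped within counting error (1.98 to 2.99 and 1.23 to 2.28 FPKM), and the ratio of tumor 1 to tumor 2 was 19.3, with a counting interval from 6.42 to 95.5. The receptor Cd40 was also lowest in tumor 2, at 2.88, 0.727 and 2.19 FPKM.

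**Figure D2:**
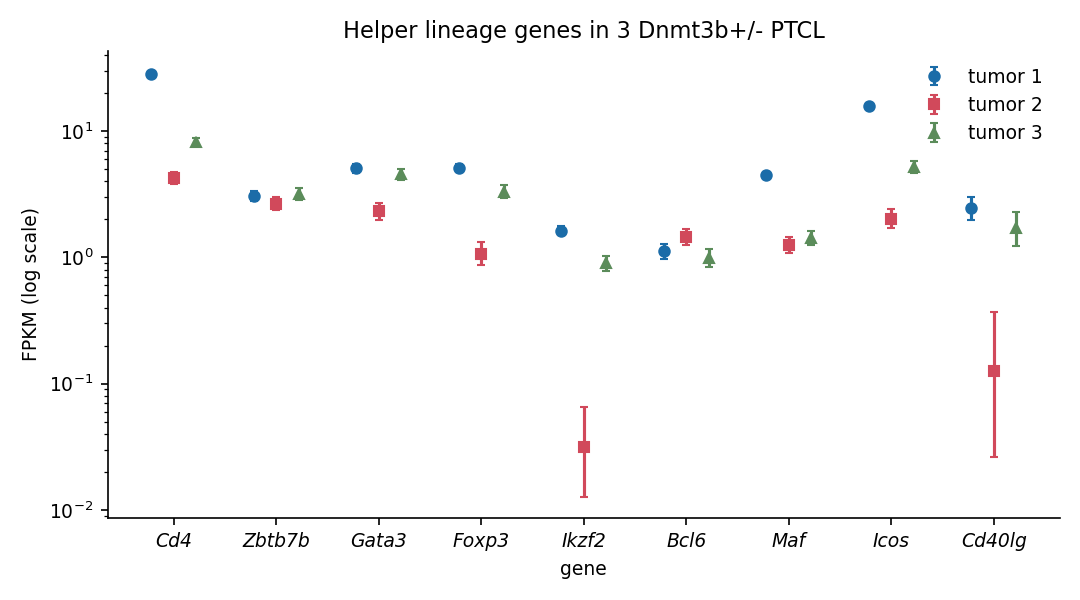
FPKM of the 9 genes (log axis) in tumor 1 (circles), tumor 2 (squares) and tumor 3 (triangles), with 95% Poisson intervals on recovered reads as bars. Cd4 and Icos reach 28.4 and 15.9 FPKM in tumor 1, and Ikzf2 and Cd40lg fall to 0.0318 and 0.127 FPKM in tumor 2.

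Taken by order, 7 of the 9 genes (Cd4, Gata3, Foxp3, Ikzf2, Maf, Icos and Cd40lg) were highest in tumor 1 and lowest in tumor 2, although with median-of-ratios factors Gata3 was highest in tumor 3. For background, genes averaging 1 FPKM or more were used, 11191 in all, which include 8 of the 9 genes and leave out Ikzf2. Cd40lg is among the 8 through its level in tumor 1 alone, as it averages 0.911 FPKM without that tumor. Of these 8 genes 6, Cd40lg included, were highest in tumor 1, where 50.6% of all such genes were highest. That background depends on the scale, at 60.5% with each tumor rescaled to the same sum of FPKM and 39.0% with median-of-ratios factors. Tumor 2 was highest for 1 of the 8 (33.7% of all genes) and tumor 3 for 1 of the 8 (15.7%), Zbtb7b, which was highest in tumor 1 with rescaled FPKM. Tumor 2 was lowest for 7 of the 8 genes, against 38.3% of all genes. The full order of tumor 1 over tumor 3 over tumor 2, counted after the values were seen, held for 6 of the 8 genes and for 30.1% of all genes. These 6 again include Cd40lg, which is counted only through its level in tumor 1.

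The range between tumors was counted in the same way. The highest tumor had at least 2 times the FPKM of the lowest for 6 of the 8 genes that average 1 FPKM or more, against 34.4% of all such genes. The median range of these 8 genes was 4.17-fold, and that of all 11191 genes was 1.68-fold. With a tumor left out, the genes that average 1 FPKM or more change too. The count was 2 of 7 genes without tumor 1 (Foxp3 and Icos, with a background of 15.8%), 3 of 9 without tumor 2 (Cd4, Icos and Maf, with a background of 17.6%) and 6 of 8 without tumor 3 (with a background of 26.2%). Without tumor 1, Cd40lg, at 0.127 and 1.69 FPKM in tumors 2 and 3, averaged under 1 FPKM and was no longer counted, and Ikzf2 was again left out. FPKM was over 0.2 in every tumor for 7 of the 9 genes, against 36.7% of all gene symbols, and Ikzf2 and Cd40lg fell below it in tumor 2. Divided by the geometric mean of the 8 general T-cell genes, Cd4 was at 35.8% of it in tumor 1, 4.60% in tumor 2 and 9.05% in tumor 3. On this scale the range of Cd4 was 7.78-fold, that of Icos 9.18-fold and that of Zbtb7b 1.36-fold.

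**Figure D3:**
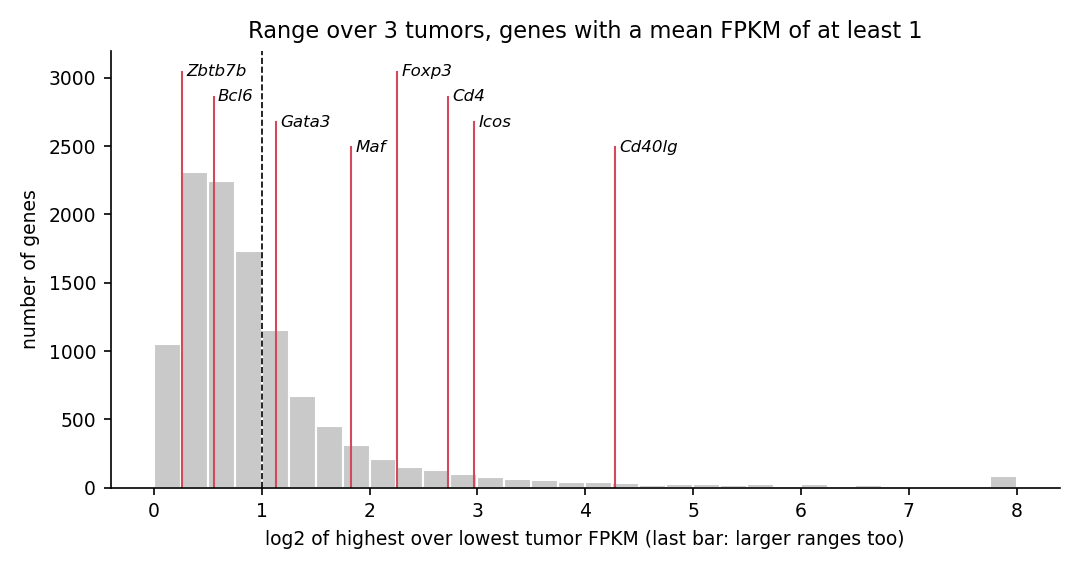
Number of genes (bars) by the log2 of the highest over the lowest tumor FPKM, for 11191 genes averaging 1 FPKM or more, with the 8 helper lineage genes among them marked by lines and a 2-fold range by the dashed line. Zbtb7b and Bcl6 lie left of the dashed line and the other 6 to its right.

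Genes with a like pattern over the 3 tumors were sought for the 6 genes with a 2-fold range, by the Euclidean distance of log2 FPKM centered on each gene's mean. The genes searched average 1 FPKM or more, which Cd40lg and some genes named here, such as Pdcd1 and Plscr1, reach through tumor 1 alone. With 3 tumors such a likeness says little, as 183 genes lay within 0.2 of Gata3, the nearest being Shoc2, Kbtbd8 and Zscan26. Nearest to Icos was Pdcd1 at a distance of 0.07, then H2-M2 and AC153498.1, with 4 genes within 0.2. Cd40lg had 2 genes within 0.2, Il6ra at 0.12 and Trbv31 at 0.18, and Prkd3 came next. The level of Cd40lg in tumor 2 rests on 3 reads, with a counting interval from 0.0261 to 0.370 FPKM, so these distances are uncertain. The nearest to Cd4 were Gm44751, Plscr1 and Gm43300 among 7 genes within 0.2, and to Foxp3 Myo1e, Tmx4 and Mettl15 among 24. Lipa, Id2 and Rarg were nearest to Maf, which had 33 genes within 0.2.

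Markers of other cells that can hold the same transcripts also differed between the tumors. The 8 B-cell markers were all lowest in tumor 2 (38.3% of all genes), 1 of them averaging under 1 FPKM without tumor 1, as were 8 of the 9 helper lineage genes, and they summed to 63.6, 14.6 and 111 FPKM in tumors 1, 2 and 3. The most abundant was Cd79a, at 23.1, 7.31 and 49.0 FPKM, then Cd79b at 20.1, 3.72 and 35.5 FPKM. Pax5, the factor of B-cell identity, had 1.75, 0.506 and 2.43 FPKM and was not at 0 in any tumor. Tumor 3 was highest for 6 of the 8 markers (15.7% of all genes, 8.75% with rescaled FPKM and 23.7% with median-of-ratios factors). It was highest for 1 of the 8 helper lineage genes averaging 1 FPKM or more, and the difference between the lists was not tested. The part of residual lymph node cells in the levels of the 9 genes was not tested.

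The 5 germinal center genes, which bear on Bcl6, summed to 19.3, 8.47 and 10.9 FPKM, with Fas the most abundant at 16.0, 4.83 and 8.88 FPKM, S1pr2 at 0.825, 2.18 and 0.767 and Mybl1 at 1.51, 0.810 and 0.722 FPKM. The 7 dendritic cell genes, which bear on Cd4, summed to 12.2, 7.06 and 4.80 FPKM, and Itgax, highest of the list in tumor 1 only, had 3.18, 1.47 and 0.762 FPKM. Their part in the levels of Bcl6 and Cd4 was not tested. Of the genes of type 17 helper cells, Ccr6 had 4.16, 0.390 and 4.37 FPKM and was lowest in tumor 2 like Cd40lg. Il17a had 0, 2 and 7 reads and Il22 had 3, 0 and 2 reads. The 7 genes summed to 7.56, 1.72 and 6.45 FPKM.

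**Figure D4:**
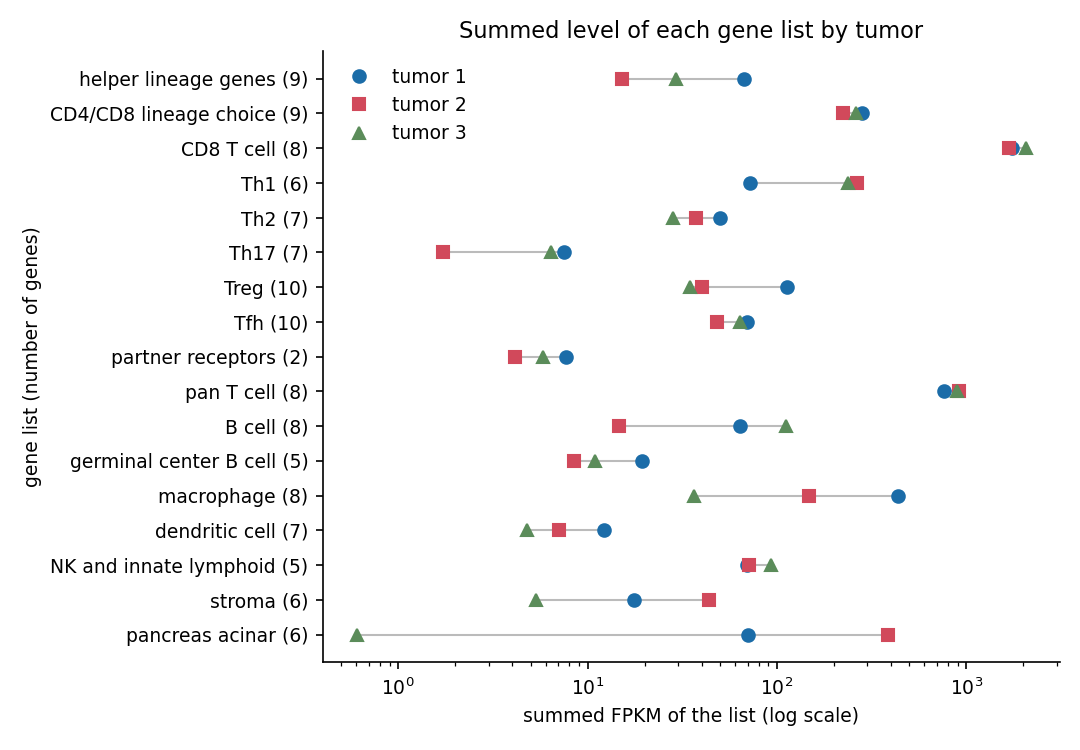
Summed FPKM (log axis) of each gene list in tumor 1 (circles), tumor 2 (squares) and tumor 3 (triangles), with the number of genes of the list in parentheses. The helper lineage genes sum to 67.1, 15.2 and 29.5 FPKM, while the general T-cell genes sum to 765, 915 and 899 FPKM.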

How the data were processed

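Total RNA of 3 PTCL was sequenced as paired ends. Trimmed reads were aligned by the authors with STAR (mm10), filtered by mapping quality and quantified in SeqMonk. They deposited FPKM per gene on a linear scale, 1 column per tumor. Tool versions are not given in the sources used here. The 3 bisulfite sequencing samples were not analysed here.

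In the deposited table, unread genes carry the value that 0.9 read would have, which gave the depth of each library. Reads were recovered with the merged exon lengths of GENCODE M21, known for 99.6% of the genes. Of the genes with fewer than 50 reads and at least 1, 84.6%, 83.7% and 82.1% came out within 0.02 of a whole number in tumors 1, 2 and 3. A count of 0 was taken to allow 3 reads. For repeated symbols the row with the highest mean was used, leaving 34199 symbols.

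With 1 group no test was made. Genes named are the 9 genes and the most abundant and the defining genes of each list. List genes with at most 3 reads in every tumor are also named, as are the 3 nearest in pattern. Cd68, Gapdh and the genes overlapping the 9 were added after the data were seen. Some defining genes are not reported here. The 9 genes and the lists were chosen with earlier results of these data known. Alternatives were other scalings, thresholds, a pseudocount of 0.1, denominators, repeated symbols summed and each tumor left out. The steps were tested on simulated data. Python 3.11, pandas, NumPy, SciPy and matplotlib were used.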

Additional observations from a re-analysis of the deposited data

How the results depend on the processing

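With 3 tumors of 1 group there is no test to lose. Rescaling each tumor's FPKM to sum to 1000000 raised the mean of each of the 9 genes by more than the SD between tumors, since it changes the unit, and the median over the 9 genes went from 2.97 to 14.4. With median-of-ratios factors that median was 2.96, and leaving out each tumor gave 2.19 to 3.13. The count of genes with a 2-fold range was 6 of 8, and 2 of 7 to 6 of 8 with a tumor left out. It was 5 of 8 at a threshold of 3-fold (16.5% of all genes tested) and 6 of 8 at 1.5-fold (62.8%), with a pseudocount of 0.1 (33.2%) or with median-of-ratios factors (32.4%). It was 7 of 9 with rescaled FPKM (47.9%) or no filter on the mean (29.5%), where Ikzf2 was tested too. The count of genes over 0.2 FPKM in every tumor was 7 of 9, with 8 at 0.1 FPKM (41.0% of all gene symbols), 6 at 1 FPKM (28.4%) and 7, 9 and 7 without tumors 1, 2 and 3 (37.5%, 38.1% and 39.1%). With Cd8b1 in place of Cd8a the mean ratio of Cd4 went from 0.0608 to 0.0365, and with the sum of both to 0.0227. With Runx1 in place of Runx3 the ratio of Zbtb7b went from 0.155 to 1.64, as Runx1 was the lower of the pair, and the tumor with the lowest ratio changed from 2 to 1. Of the 8 genes averaging 1 FPKM or more, 6 were highest in tumor 1, with 7 under rescaled FPKM (60.5% of all such genes) and 5 under median-of-ratios factors (39.0%), which lower tumor 1 by 0.12 on the log2 scale against the deposited values. Each of these counts includes Cd40lg, which reaches that average through tumor 1 alone. Of the same 8 genes, 7 were lowest in tumor 2 with rescaled FPKM (34.3% of all such genes), with median-of-ratios factors (36.6%), without tumor 1 (45.8%) and without tumor 3 (58.8%), alternatives chosen after seeing the data, as was counting the gene lists over genes averaging 1 FPKM or more. No paired analysis was possible because the result comes from no test. Depth limits Ikzf2 and Cd40lg in tumor 2, with 7 and 3 reads.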

Other observations

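Tissue markers outside the lymphoid lists differed between the tumors. The 6 acinar genes of the pancreas summed to 70.5, 386 and 0.603 FPKM in tumors 1, 2 and 3, led in the mean over tumors by Ctrb1 at 33.9 and 198 FPKM in tumors 1 and 2 with no read in tumor 3. The 6 stromal genes summed to 17.5, 43.8 and 5.34 FPKM, led in the mean over tumors by Pecam1 at 12.2, 10.9 and 4.86 FPKM. In tumor 2, Col1a1 with 15.5 and Col3a1 with 14.3 FPKM were above Pecam1. Both lists were highest in tumor 2, where 8 of the 9 helper lineage genes were lowest, and their part in those levels was not tested.

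Among genes of CD8 T cells, tumor 1 had 463 FPKM of Gzmb, tumor 2 had 702 and tumor 3 had 134, while Ccl5 had 238, 194 and 729 FPKM and Nkg7 had 237, 409 and 447 FPKM. The 8 genes of this list, Cd8a and Cd8b1 included, summed to 1740, 1685 and 2076 FPKM, against 67.1, 15.2 and 29.5 for the 9 helper lineage genes. Of 5 natural killer and innate lymphoid genes, Klrd1 had 37.2, 64.5 and 25.2 FPKM and Klrb1c had 0.308, 5.77 and 3.38 FPKM. Ncr1, at 0.380, 0.205 and 0.125 FPKM, and Kit, at 0.785, 0.390 and 0.243 FPKM, were low and highest in tumor 1. Which cells hold these transcripts was not tested. Il7r was lowest in tumor 2 like Cd4 and Icos, at 30.7, 0.641 and 64.5 FPKM. Among widely expressed genes, B2m had 2327, 1573 and 1781 FPKM, Actb had 1114, 1434 and 1409 FPKM and Ppia had 408, 308 and 370 FPKM. Gapdh, the only 1 of the 6 genes on this list with a 2-fold range, had 68.4, 150 and 94.0 FPKM.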
